A study of Mus musculus with 2 samples.

Results

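The genes described are 10 that handle iron and haem: Spic, Slc40a1, Hmox1, Cd163, Slc11a1, Blvrb, Hfe, Trf, Ftl1 and Fth1. They were chosen by symbol, and each matched 1 of the 32285 gene rows of a single-cell RNA-seq library of the mouse thymus made in 2021. The cells came from the enzymatically digested thymus of adult C57BL/6 mice (C57BL/6J in the design text). They were CD64+ by flow sorting; CD64 is a receptor for IgG that macrophages and many monocytes display. The labels name no treatment, no altered gene and no other group, and the sources used here do not say how many animals were pooled. A second library of the same population, from 2024, gave depth only, because no list of its gene names was used here. With gene values from 1 library there is no replicate spread and no test. Ranges in brackets are exact 95% intervals that cover counting error only.

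Macrophages that take up ageing red cells receive haemoglobin iron. Haem is opened by haem oxygenase, the freed iron is held in ferritin or leaves the cell through ferroportin, and transferrin carries it in the plasma. This route is best known from the red pulp of the spleen and from liver macrophages. In the thymus, macrophages are better known for clearing dying thymocytes.

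A UMI, or unique molecular identifier, stands for 1 captured transcript. In 2021 there were 3214 barcodes with 8534578 UMIs and a median of 2157.5 per barcode. After filtering, 3185 cells remained. They were clustered with the 10 genes kept out of the clustering genes and named from other markers. The labels call the samples macrophages, but 369 cells (11.6%) were macrophage-like. The others were 792 conventional dendritic cell (DC)-like, 493 monocyte-like, 488 neutrophil-like, 386 T lineage-like, 298 natural killer (NK) or innate lymphoid-like, 212 B lineage-like and 11 mast cell or basophil-like cells, and 136 unnamed cells led by Elane, Prtn3, Prg2 and Mpo. The 14 macrophage markers together stood at 21188 CPM in macrophage-like cells and 2426 CPM in monocyte-like cells, where CPM (counts per 1000000) is a gene's UMIs scaled to the summed UMIs of the same cells. Red-cell RNA was nearly absent from macrophage-like cells, where the haemoglobin genes had 3 UMIs (2.69 CPM).

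Of these genes, 3 carry an iron-responsive element in the 5′ untranslated region (UTR) of their mRNA. Iron regulatory proteins bind this hairpin when iron is scarce and block translation, so that counts of these mRNAs do not give protein levels. The search asked for a C bulge, a stem of 5 base pairs and the loop CAGTGN on the transcript strand, with at least 4 of 5 pairs in the lower stem. It matched the 5′ UTR of 6 of 20899 genes (0.0287%). The matches are shown because ferritin and ferroportin are the storage and export steps described here; capitals mark the loop. The last line is 1 of 4 matches in the 3′ UTR of Tfrc, the transferrin receptor, where binding stabilises the mRNA instead. Positions are on GRCm38 (mm10), from the GENCODE annotation.
Fth1 5′ UTR, chr19:9982733-9982759, plus strand: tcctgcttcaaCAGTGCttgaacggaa
Ftl1 5′ UTR, chr7:45459780-45459806, minus strand: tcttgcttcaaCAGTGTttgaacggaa
Slc40a1 5′ UTR, chr1:45925466-45925492, minus strand: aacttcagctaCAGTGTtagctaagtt
Tfrc 3′ UTR, chr16:32631711-32631737, plus strand: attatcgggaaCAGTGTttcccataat

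Among the named classes of at least 200 cells, macrophage-like cells held the highest level of Spic, Slc40a1, Cd163, Blvrb, Trf, Ftl1 and Fth1. Hmox1 and Slc11a1 were shared with monocyte-like cells, and Hfe was highest in conventional DC-like cells. Against all other kept cells, 9 of the 10 genes lay past the fold used here (a log2 ratio of at least 1 with 10 CPM added to both sides). The background was 5.04% of 11126 genes with at least 15 UMIs. The median log2 ratio was 2.11 over the 10 genes and 0.05 over all genes compared. None was past the fold on the lower side (background 2.83%). The exception was Hfe, at 119 CPM (99.7 to 141) in macrophage-like and 117 CPM (109 to 125) in other cells.

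**Figure D1:**
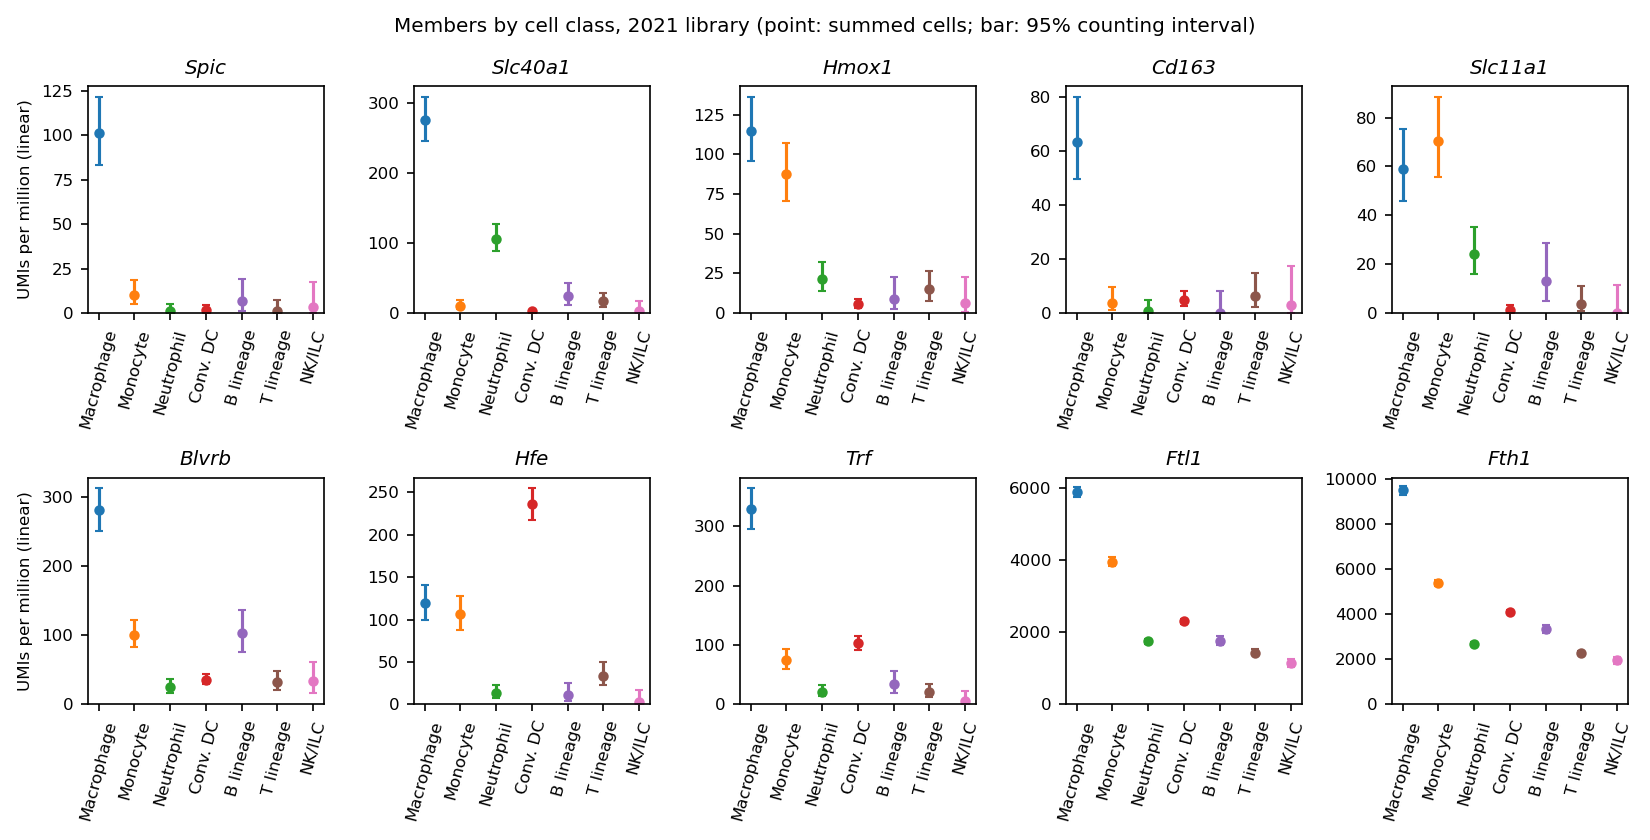
Level of each of the 10 genes (CPM, linear axes from 0) in the 7 larger cell classes of the 2021 library; points are summed cells and bars 95% counting intervals. Macrophage-like cells stand highest for Spic, Slc40a1, Cd163, Blvrb, Trf, Ftl1 and Fth1, share the highest levels of Hmox1 and Slc11a1 with monocyte-like cells, and lie below conventional DC-like cells for Hfe (119 against 236 CPM).

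Spic (ENSMUSG00000004359, chr10:88674772-88685015, minus strand) encodes Spi-C, a transcription factor that red pulp macrophages need and that haem induces. It had 135 UMIs in all kept cells, 113 of them (83.7%) in macrophage-like cells. Its macrophage-like level was 101 CPM (83.4 to 122), against 10.4 CPM (5.17 to 18.5) in monocyte-like cells and 0.868 CPM (1 UMI) in neutrophil-like cells. After each cell was thinned to 2000 UMIs, Spic was detected in 13.0% of 254 macrophage-like cells (9.11 to 17.8). It was detected in 0 of 114 T lineage-like cells, which allows a share of up to 2.63%. Such limits for a count of 0 are 3 counts over the cells or UMIs examined. The exact interval is wider and reaches 3.18% here. The T lineage-like share is given as a reference level where thinned shares of single genes are printed, which leaves out Cd163 and Slc11a1. How much of it was free RNA in the droplets was not tested. Before thinning, the median depth was 2533 UMIs in macrophage-like and 1058 in T lineage-like cells.

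Cd163 (ENSMUSG00000008845, chr6:124304656-124330527, plus strand) encodes the scavenger receptor for haemoglobin bound to haptoglobin. It was the least counted of the 10 genes, with 96 UMIs. Macrophage-like cells stood at 63.6 CPM (49.7 to 80.2), and the next class, T lineage-like cells, at 6.32 CPM (2.05 to 14.7). B lineage-like cells had 0 UMIs, which allows up to 6.57 CPM. Macrophage-like cells were the only class with a lower bound above 3 CPM.

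Hmox1 (ENSMUSG00000005413, chr8:75093621-75100589, plus strand) encodes haem oxygenase 1, which opens the haem ring and frees its iron. It stood at 115 CPM (95.6 to 136) in macrophage-like and 87.5 CPM (70.6 to 107) in monocyte-like cells, with overlapping intervals. Neutrophil-like cells followed at 21.7 CPM (14.0 to 32.0). After thinning, Hmox1 was detected in 14.2% of macrophage-like, 11.2% of monocyte-like and 3.51% of T lineage-like cells. In the 73 monocyte-like cells with a Hmox1 UMI, C1q genes stood at 88.6 CPM (49.6 to 146). The 420 without stood at 159 CPM (134 to 187), and macrophage-like cells at 7212 CPM. The part of macrophage RNA or free RNA in the monocyte-like Hmox1 level was not tested.

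Blvrb (ENSMUSG00000040466, chr7:27447978-27466144, plus strand) encodes biliverdin reductase B, which acts on a product of haem breakdown. Macrophage-like cells had 280 CPM (250 to 313). B lineage-like cells (103 CPM, 75.7 to 137) and monocyte-like cells (101 CPM, 82.5 to 122) could not be told apart. T lineage-like, NK or innate lymphoid-like, conventional DC-like and neutrophil-like cells lay between 25.2 and 35.7 CPM. The thinned share was 32.3% in macrophage-like, 18.8% in monocyte-like and 7.89% in T lineage-like cells.

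Slc40a1 (ENSMUSG00000025993, chr1:45908068-45926523, minus strand) encodes ferroportin, the iron exporter. Its levels set the myeloid classes apart: 276 CPM (246 to 308) in macrophage-like cells, 106 CPM (87.9 to 126) in neutrophil-like cells, 10.4 CPM (5.17 to 18.5) in monocyte-like cells and 2.21 CPM (0.810 to 4.81) in conventional DC-like cells. After thinning, ferroportin transcripts were detected in 21.3% of macrophage-like cells (16.4 to 26.8) and 21.1% of neutrophil-like cells (15.7 to 27.4), against 0.877% of T lineage-like cells. The neutrophil-like signal was spread over cells, with at most 4 UMIs in 1 cell, while 1 macrophage-like cell held 12. The 96 neutrophil-like cells with a Slc40a1 UMI carried C1q genes at 105 CPM and the 392 without at 94.6 CPM, with overlapping intervals. Macrophage-like cells stood at 7212 CPM. The 96 cells were deeper than the 392, at medians of 2297.5 and 1619.5 UMIs. The part of macrophage RNA or free RNA in the neutrophil-like level was not tested. Against all other cells, Slc40a1 was 2.16-fold higher in neutrophil-like cells (1.74 to 2.66), with a log2 ratio of 0.97 that just missed the threshold.

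Slc11a1 (ENSMUSG00000026177, chr1:74375195-74386062, plus strand) encodes NRAMP1, a metal pump of the phagosome membrane. Monocyte-like cells, at 70.6 CPM (55.5 to 88.5), and macrophage-like cells, at 59.1 CPM (45.7 to 75.2), had overlapping intervals. Neutrophil-like cells stood lower at 24.3 CPM (16.2 to 35.1). Of these, the 26 cells with a Slc11a1 UMI carried C1q genes at 248 CPM (132 to 425) and the 462 without at 90.0 CPM (73.2 to 109.6), with intervals apart; the part of macrophage RNA in this level was not tested. Conventional DC-like cells had 3 UMIs, or 1.10 CPM (0.228 to 3.23). In monocyte-like cells, against all other cells, Hmox1 and Slc11a1 were past the fold on the higher side (background 2.34%) and Slc40a1 on the lower side (background 4.97%). With classes set from the marker UMIs of each cell, 0 genes were on the higher and 2 on the lower side.

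Trf (ENSMUSG00000032554, chr9:103204001-103230444, minus strand) encodes transferrin, the plasma iron carrier. It stood at 329 CPM (296 to 364) in macrophage-like, 103 CPM (91.0 to 115) in conventional DC-like and 75.3 CPM (59.7 to 93.7) in monocyte-like cells. The intervals of the last of these classes overlap slightly. Thinned, 28.0% of macrophage-like cells held a Trf UMI, as did 1.75% of T lineage-like cells. In the 11 mast cell or basophil-like cells Trf had 4 UMIs among 11330, and 7 of the other genes had none, which allows each up to 265 CPM. With so few cells the background was 11.1% on the higher and 47.8% on the lower side. Trf overlaps the annotated gene Gm20425 on the same strand, and reads cannot be assigned between them with certainty.

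Hfe (ENSMUSG00000006611, chr13:23702034-23710854, minus strand) encodes a relative of MHC class I heavy chains that binds the transferrin receptor and takes part in iron sensing. Conventional DC-like cells held 641 of its 996 UMIs (64.4%), at 236 CPM (218 to 255). Macrophage-like cells (119 CPM, 99.7 to 141) and monocyte-like cells (106 CPM, 87.6 to 128) followed and could not be told apart. The thinned share was 34.4% in conventional DC-like cells and 7.02% in T lineage-like cells. Hfe was the only one of the 10 genes past the fold on the higher side in conventional DC-like cells, where the background was 1.94%. On the lower side were 5 of the 10 (Spic, Slc40a1, Hmox1, Slc11a1 and Blvrb), against a background of 6.51%.

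Ftl1 (ENSMUSG00000050708, chr7:45457944-45459884, minus strand) and Fth1 (ENSMUSG00000024661, chr19:9980598-9985098, plus strand) encode the light and heavy chains of ferritin, the iron store. After thinning, Fth1 was detected in 99.6% of macrophage-like, 89.5% of T lineage-like and 76.4% of neutrophil-like cells, and Ftl1 in 99.2%, 81.6% and 79.9%. Fth1 stood at 9488 CPM in macrophage-like cells (9308 to 9670), 5387 in monocyte-like, 4098 in conventional DC-like, 3330 in B lineage-like, 2687 in neutrophil-like, 2275 in T lineage-like and 1966 in NK or innate lymphoid-like cells. No 2 neighbours in that order had overlapping intervals. Ftl1 followed nearly the same order, from 5884 CPM (5742 to 6028) in macrophage-like to 1138 CPM (1024 to 1261) in NK or innate lymphoid-like cells; B lineage-like (1761 CPM) neutrophil-like cells (1746 CPM) could not be told apart. Ftl1 overlaps the annotated genes Gm22133 and Gm10252. Together the ferritin chains took 1.54% of all UMIs of macrophage-like cells (1.51 to 1.56), 0.934% in monocyte-like, 0.443% in neutrophil-like, 0.371% in T lineage-like and 0.310% in NK or innate lymphoid-like cells. Under a stricter cell filter the neutrophil-like share was 0.266%, below the T lineage-like (0.316%) and NK or innate lymphoid-like (0.370%) shares.

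In the lymphoid classes none of the 10 genes was past the fold on the higher side, where the background was 2.71% in B lineage-like, 14.9% in T lineage-like and 5.5% in NK or innate lymphoid-like cells. On the lower side were 5 of 10 in B lineage-like cells (background 10.3%), 7 of 10 in T lineage-like cells (7.65%) and 9 of 10 in NK or innate lymphoid-like cells (11%). The last count fell to 3 under a stricter cell filter. Neutrophil-like cells had 5 of 10 on the lower side: Spic, Cd163, Blvrb, Hfe and Trf. The background there was 22.2%, and the median of all genes compared was -0.45 on the log2 scale, while S100a8 and S100a9 alone stood at 369660 CPM. With scaling by the median of ratios the median of all genes was 0.49, and 1 of the 10 was on the lower and 2 on the higher side.

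Macrophage-like cells were not uniform in these genes. They formed a larger cluster of 293 cells (cluster 5), led by Ccl12, Pf4, Saa3, C1q genes and Prg4, and a smaller one of 76 cells (cluster 12), led by Gdf15, Vcam1, Rhob and Mertk. Vcam1, an adhesion molecule of resident macrophages, stood at 2990 CPM in cluster 12 and 279 CPM in cluster 5. Earlier results on these cells had linked Spic, Slc40a1 and Vcam1, so the split is a description and not an independent finding. Cluster 12 had 7 of the 10 genes past the fold on the higher side, against a background of 10.1% of 6674 genes, and none on the lower side (background 5.44%). The median log2 ratio was 1.94 over the 10 genes and 0.11 over all genes.

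Cd163 had the widest gap, at 267 CPM (204 to 343) in cluster 12 and 11.3 CPM (5.40 to 20.7) in cluster 5, a 23.7-fold difference (12.0 to 51.8). Spic followed at 376 CPM (301 to 464) and 30.4 CPM (20.04 to 44.2), a 12.4-fold difference (7.94 to 19.8). Slc40a1 stood at 966 CPM (843 to 1102) and 98.0 CPM (78.5 to 121), 9.86-fold apart. A Slc40a1 UMI was found in 61 of 76 cells of cluster 12 and 42 of 293 of cluster 5 without thinning. These are the haemoglobin receptor, the haem-induced regulator and the iron exporter.

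The remaining genes past the fold differed by 3.96- to 4.60-fold. Hmox1 stood at 293 CPM (227 to 372) and 68.7 CPM (52.5 to 88.2). Blvrb stood at 691 and 175 CPM, Slc11a1 at 149 and 36.0 CPM, and Trf at 870 and 189 CPM, with no overlap of intervals. Hfe did not separate the clusters, at 122 CPM (81.3 to 177) and 118 CPM (96.7 to 143).

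The ferritin chains moved in opposite directions. Ftl1 was 1.55-fold higher in cluster 12 (8183 against 5291 CPM), while Fth1 was 1.40-fold lower (7182 against 10082 CPM), both within the fold threshold. Their sum was the same share of UMIs, 1.54%, in both clusters. The number of Ftl1 UMIs per Fth1 UMI was thus 1.14 (1.07 to 1.22) in cluster 12 and 0.525 (0.507 to 0.544) in cluster 5. In single cells of cluster 5, Fth1 ranged from 376 CPM in the lowest cell over a median of 9063 CPM to 66453 CPM in the highest.

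Other transcripts moved with cluster 12. The 11 neutrophil markers stood at 14701 CPM there and 466 CPM in cluster 5. Of the 2825 S100a8 and S100a9 UMIs in cluster 12, 2773 lay in 3 cells. Without these cells and 1 such cell of cluster 5, the levels in the 2 clusters were 968 and 96.1 CPM for Slc40a1, 369 and 29.4 CPM for Spic, and 309 and 68.9 CPM for Hmox1, and 7 of the 10 genes were again past the fold. The 10 genes listed for dissociation stress, such as Fos and Jun, stood at 20659 CPM in cluster 12 and 6739 CPM in cluster 5, and C1q genes at 10496 and 6366 CPM; their part in the result was not tested. The 6 listed erythroid genes with a row had 5 at 0 in each cluster and a summed level of 4.37 and 2.25 CPM.

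**Figure D2:**
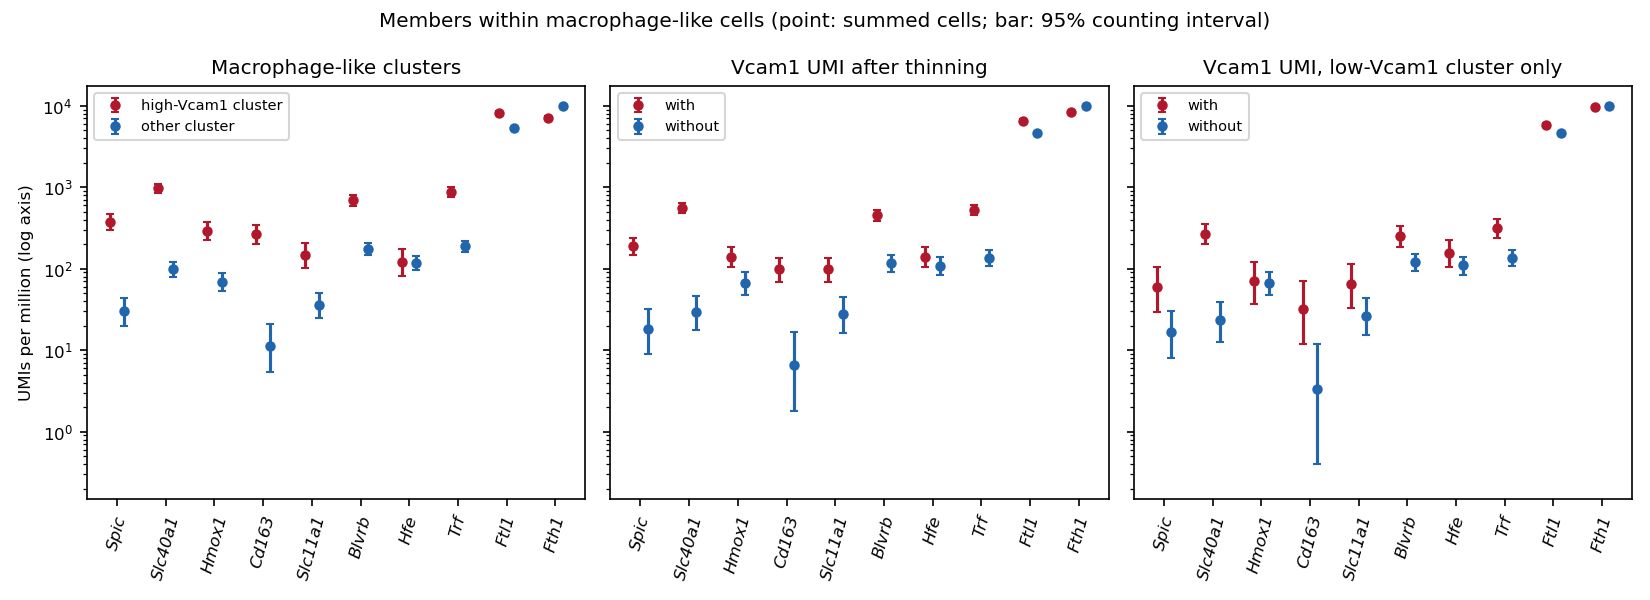
Level of each of the 10 genes (CPM, log axis) in macrophage-like cells split by cluster (left), by a Vcam1 UMI after thinning (middle) and by a Vcam1 UMI within cluster 5 (right); points are summed cells and bars 95% counting intervals. Spic, Slc40a1, Slc11a1, Blvrb and Trf are past the fold in all 3 panels, whereas Hfe is not in any. In the right panel the intervals of Spic and Slc11a1 overlap.

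The same genes were compared without clusters, by whether a macrophage-like cell held a Vcam1 UMI after thinning to 2000 UMIs. This left 91 cells with and 163 cells without, and 115 shallower cells out. Of the 10 genes, 6 were past the fold on the higher side in the cells with Vcam1, against a background of 6.88%, and none on the lower side (2.27%). Slc40a1 stood at 555 CPM (481 to 638) and 29.5 CPM (17.5 to 46.6), an 18.8-fold difference (11.6 to 32.4). Hmox1, at 140 and 67.2 CPM, had a log2 ratio of 0.96 and missed the threshold. Fth1 lay the other way within the threshold, at 8334 and 9977 CPM. Cluster 12 supplied 47 of the 91 cells with and 2 of the 163 cells without Vcam1. Dissociation stress genes stood at 12880 and 6420 CPM in these gates, and their part in the result was not tested. Neutrophil markers stood at 9517 and 310 CPM; without the cells that held most of them, 7 of the 10 genes were past the fold.

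Within cluster 5 alone, the 44 cells with Vcam1 still had 269 CPM of Slc40a1 (199.5 to 354) and the 161 cells without 23.3 CPM (12.7 to 39.1). Spic, Slc11a1, Blvrb and Trf were also past the fold, against a background of 4.29%. None was on the lower side (4.19%). Spic, with 11 and 10 UMIs, and Slc11a1, with 12 and 16 UMIs, had overlapping intervals. Slc11a1 and Blvrb were only just past the threshold, at log2 ratios of 1.03 and 1.02. Cd163, with 6 and 2 UMIs, had too few to be counted. Trf stood at 312 and 136 CPM and Blvrb at 253 and 120 CPM. Hmox1 did not follow Vcam1 there, at 69.9 CPM (37.2 to 119.5) and 66.5 CPM (47.5 to 90.6). Dissociation stress genes stood at 7575 and 6353 CPM in these 2 gates, C1q genes at 9358 and 4891 CPM, NK and innate lymphoid markers at 908 and 251 CPM, T lineage markers at 424 and 110 CPM and B lineage markers at 220 and 26.6 CPM; their part in the result was not tested.

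A finer clustering (resolution 1) gave 3 macrophage-like groups. Beside the 76 cells led by Gdf15 and Vcam1, a group of 120 cells was led by Saa3, Pf4, Retnla and Prg4, and a group of 185 cells by Ccl12, Cfb, Cxcl9 and Cxcl10. The Prg4 group had 216 CPM of Slc40a1 (165 to 278) and 407 CPM of Trf (336 to 489), and the Cxcl9 group 40.8 CPM (26.7 to 59.8) and 84.8 CPM (63.7 to 111). Cd163 stood at 35.4 CPM in the former and had 0 UMIs in the latter. Vcam1 was also higher in the Prg4 group, at 489 against 174 CPM, so Slc40a1, Trf and Vcam1 stood in the same order over the 3 macrophage-like groups. The ratio of Ftl1 to Fth1 UMIs had that order too, at 1.14, 0.841 and 0.414.

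In single cells, these genes were found together mainly in cluster 12. After thinning, 3 or more of the 8 genes other than the ferritin chains were detected in 36 of 49 cells of cluster 12 (73.5%, 58.9 to 85.1) and 20 of 205 cells of cluster 5 (9.76%, 6.06 to 14.7). The share was 3.60% in monocyte-like cells and 0 of 199 neutrophil-like cells. At most 7 of the 8 were found in 1 cell. Over all 254 thinned macrophage-like cells, 21 of 28 gene pairs met in a cell more often than their single shares give, 11 of them with an interval above 1. Other gene pairs were not compared, and these cells pool both clusters. Slc40a1 with Cd163 led, in 15 cells where 3.83 were expected. Within cluster 5 the interval lay above 1 for 1 of the 28 pairs, Slc40a1 with Cd163, and within cluster 12 for none. In cluster 5 that pair rested on 3 cells, where 0.371 were expected.

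**Figure D3:**
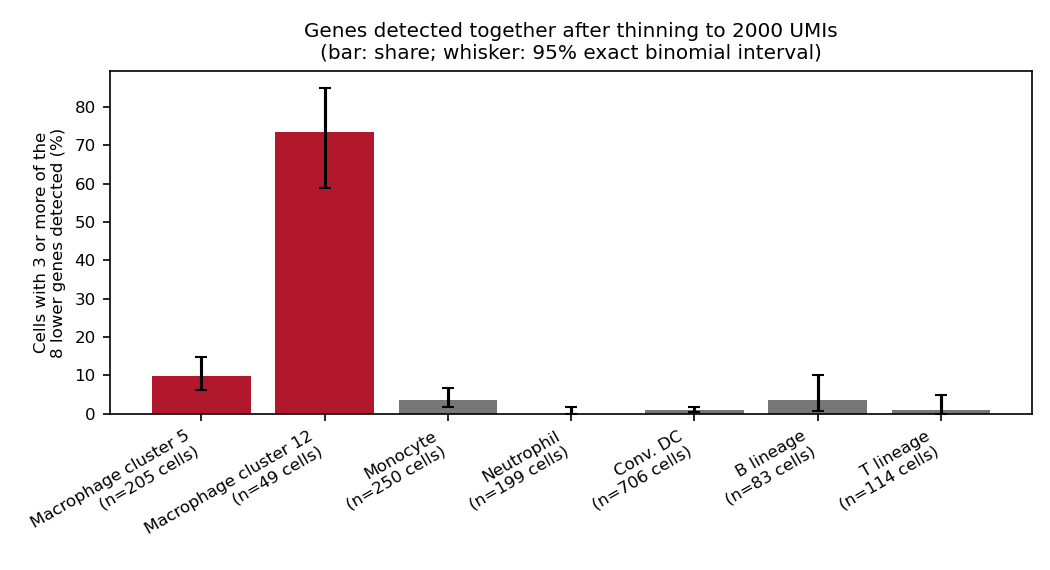
Share of cells (percent, axis from 0) in which 3 or more of the 8 genes other than Ftl1 and Fth1 were detected after thinning to 2000 UMIs, for the 2 macrophage-like clusters (red) and other classes (grey); whiskers are 95% exact binomial intervals. Cluster 12 reaches 73.5% and cluster 5 9.76%, and every other class shown lies below 4%.

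Neutrophil-like cells formed 2 clusters that differed in ferritin, Slc11a1 and Blvrb but not clearly in Slc40a1. Cluster 6 (247 cells) was led by Retnlg, Cxcr2 and Csf3r, the last pair known from mature neutrophils, and cluster 7 (241 cells) by the granule genes Ltf, Camp and Ngp. Fth1 stood at 6494 CPM (6234 to 6762) in cluster 6 and 948 CPM (882 to 1019) in cluster 7, a 6.85-fold difference. Cluster 6 was shallower, at a median of 1236 against 2584 UMIs, and the part of depth was not tested. Ftl1 differed 3.34-fold (3366 against 1007 CPM), Slc11a1 stood at 60.9 (38.2 to 92.2) and 7.59 CPM, an 8.03-fold difference (3.16 to 24.2), and Blvrb at 55.4 and 11.4 CPM. The 14 macrophage markers moved with this split, at 797 CPM (708 to 895) in cluster 6 and 336 CPM (297 to 379) in cluster 7; their part in the result was not tested. Fth1, Ftl1, Slc11a1 and Blvrb were the 4 of the 10 genes past the fold, against a background of 11.8%, and none was on the lower side (8.78%). Of the listed further genes, 3 of 21 were past the fold on the higher side, a share near the background of 11.8%. On the lower side were 3 of the 21 (background 8.78%), Lcn2 and Ltf among them. On the higher side, the iron-sensing ligase Fbxl5 stood at 163 and 58.2 CPM. Slc25a37, which brings iron into mitochondria, stood at 55.4 and 13.9 CPM. Slc40a1 was found in both, at 133 CPM (98.0 to 176) and 93.6 CPM (73.5 to 117), with overlapping intervals.

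At the finer clustering, 95 neutrophil-like cells led by Acod1, Csf3r, Cxcl2 and Il1b had the highest ferritin share of any cluster. It was 2.20% of their UMIs (2.11 to 2.30), above the 1.54% of macrophage-like cells. Their Fth1 level was 15049 CPM (14288 to 15840). These were shallow cells, with a median of 769 UMIs against 2533 in macrophage-like cells. The part of depth in this result was not tested. The 157 neutrophil-like cells led by Retnlg and Mmp8, with a median of 1622 UMIs, had a share of 0.534% (0.507 to 0.562). The group led by Camp, Ngp and Fcnb had the lowest share, 0.161% (0.149 to 0.175).

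**Figure D4:**
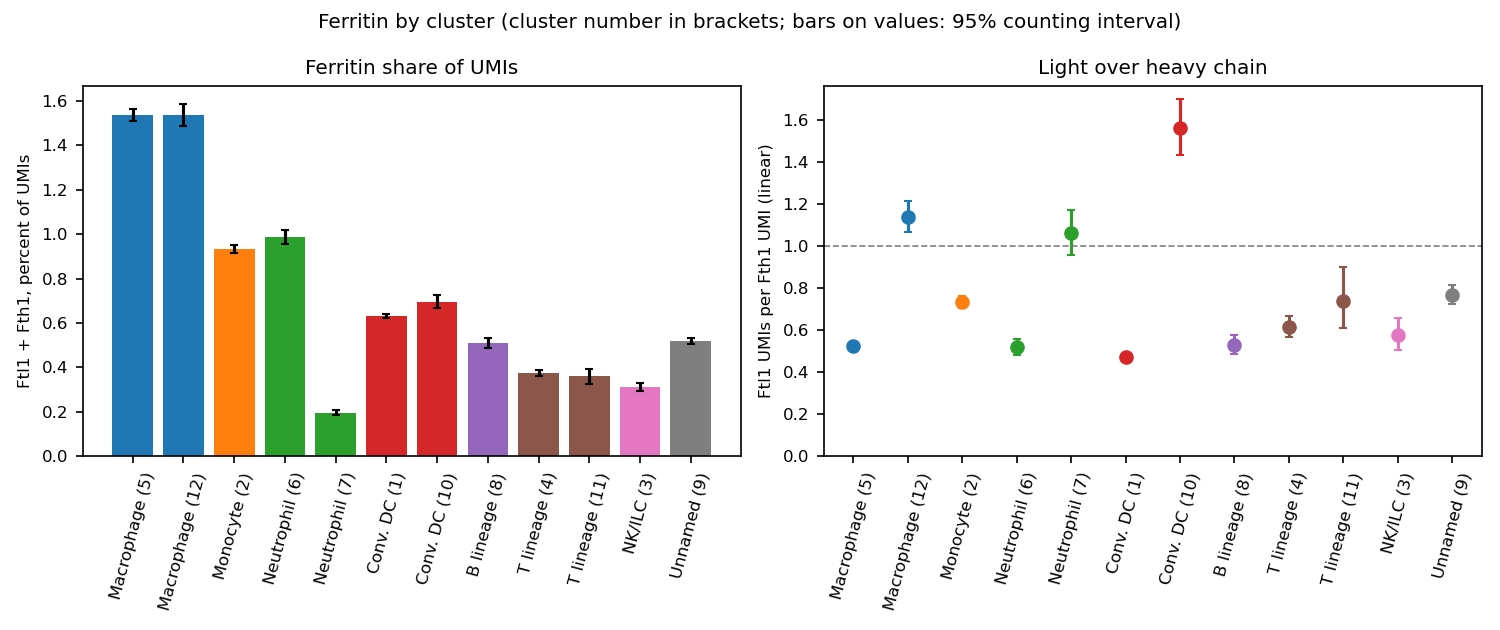
Left, share of all UMIs from Ftl1 and Fth1 in each cluster (percent, axis from 0); right, Ftl1 UMIs per Fth1 UMI (linear), with 95% counting intervals and the cluster number in brackets. Both macrophage-like clusters stand at 1.54%, neutrophil-like cluster 7 is lowest at 0.196%, and of the 12 clusters drawn DC-like cluster 10 has the highest ratio (1.56).

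Conventional DC-like cells likewise split. Cluster 10 (114 cells) was led by Ccl22, Ccr7 and Fscn1, genes of mature migrating DCs, and cluster 1 (678 cells) by Cd209d, Cd209e, Cd209a and Mgl2. Hfe stood at 111 CPM (77.5 to 153) in cluster 10 and 253 CPM (233 to 274) in cluster 1. Trf stood at 15.4 CPM (4.99 to 35.9) and 115 CPM (101 to 129). Both were past the fold on the lower side, where the background was 13.6%.

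Ferritin in cluster 10 shifted to the light chain. Ftl1 stood at 4243 CPM against 2030 CPM in cluster 1, the only gene of the 10 past the fold on the higher side (background 7.28%). Fth1 stood at 2716 against 4286 CPM. The 1.56 Ftl1 UMIs per Fth1 UMI (1.43 to 1.70) in cluster 10 compare with 0.474 (0.458 to 0.490) in cluster 1. Only the 11 mast cell or basophil-like cells had a higher ratio, 1.83 (1.14 to 2.98). Of the listed further genes, 5 of 35 were past the fold on the higher side (background 7.28%) and 5 on the lower side (background 13.6%). On the higher side, Ncoa4, the receptor that takes ferritin to the lysosome, stood at 95.3 and 27.2 CPM in clusters 10 and 1. Iscu, the iron-sulfur scaffold, stood at 605 and 139 CPM. The 5 also included Lcn2 and Ltf, named here whatever their level. Ncoa4, Lcn2 and Ltf were past the fold in neutrophil-like cells too (background 4.95%). The part of neutrophil RNA in the cluster 10 levels was not tested. At the finer clustering, 243 cells led by Cd209e, Cd209d and Cd7 had 211 CPM of Trf (181 to 243), and 435 cells led by Ccl17 and Epcam 59.9 CPM (48.3 to 73.6). Their Hfe levels were 222 and 271 CPM. The Cd209e group met the marker rule for plasmacytoid DCs there (Siglech, Cox6a2 and Runx2), so its name depends on the clustering.

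Monocyte-like cells also held 2 finer groups, one led by Ace and Treml4, genes of patrolling monocytes, and one by F13a1 and Lyz2. Slc11a1 stood at 134 CPM (97.1 to 181) in the Ace group and 41.6 CPM (27.9 to 59.7) in the F13a1 group. Hfe stood at 222 CPM (173 to 280) and 55.9 CPM (39.8 to 76.4). Hmox1 lay the other way, at 68.7 CPM (43.0 to 104) and 100.4 CPM (78.2 to 127), with overlapping intervals.

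A further 52 genes of iron and haem handling were listed, of which 38 had enough UMIs to be compared. In macrophage-like cells 2 of the 38 were past the fold on the higher side, a share near the background of 5.04%. On the lower side were 3 of the 38 (background 2.83%), and the median log2 ratio was 0.04. The 2 were Lrp1, a receptor that takes up haem bound to haemopexin (205 CPM, 179 to 233, against 49.1 CPM), and Nfe2l2, which encodes the activator NRF2 of Hmox1 (196 CPM, 171 to 224, against 83.8 CPM). Both were past the fold in monocyte-like cells too (background 2.34%), with Bach1, the haem-sensitive repressor of Hmox1, at 134 CPM (113 to 158). The 3 on the lower side, Hp, Lcn2 and Ltf, are neutrophil products.

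In cluster 12, 3 of 24 such genes were past the fold on the higher side, a share near the background of 10.1%. Lrp1 stood at 372 CPM (297 to 459) and 162 CPM (137 to 191) in the 2 macrophage-like clusters. The others were Lcn2 and Ltf, the iron-binding granule proteins lipocalin 2 and lactoferrin, at 407 and 170 CPM. Without the cells that held most S100a8 and S100a9 UMIs these fell to 18.4 and 4.61 CPM, while Lrp1 stood at 373 CPM. On the lower side (background 5.44%) were Smad7, at 13.1 and 42.8 CPM, and Keap1, at 17.5 and 45.04 CPM, both under the level set for naming genes and given here after their values were seen.

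Neutrophil-like cells had 6 of the 38 on the higher side, where the background was 4.95%. Lcn2 stood at 13589 CPM, Ltf at 6874 CPM and Hp, haptoglobin, at 1302 CPM. Fbxl5, the ligase that senses iron, stood at 91.1 CPM (74.5 to 110) against 22.4 CPM in other cells. Alas1, the first enzyme of haem synthesis, stood at 94.6 CPM (77.7 to 114) against 28.8 CPM. Conventional DC-like cells had 0 of the 38 on the higher and 5 on the lower side (backgrounds 1.94% and 6.51%), and B lineage-like cells 1 and 8 (2.71% and 10.3%).

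T lineage-like cells had 4 of the 38 on the higher side. Tfrc, the route by which dividing cells take up transferrin, stood at 83.4 CPM (64.5 to 106) against 16.2 CPM (13.5 to 19.3) in all other cells. Pcbp2, which passes iron to ferritin, stood at 636 CPM (581 to 694) against 287 CPM. The share of 4 in 38 lay below the background of 14.9%. On the lower side were 5 of the 38 (background 7.65%).

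Over the 13 clusters, each gene's level was compared with that of 8602 others by Pearson's r of log2(CPM + 10). This is a description, since the clusters share a library and 1 cluster weighs heavily. Spic was most like Sash1 (r = 0.99, and 0.93 without cluster 12), Tmem26 and Mertk, the receptor for dying cells. Cd163 was most like Mertk (0.97), Gdf15 and Abcc3, but without cluster 12 these fell to 0.74, 0.51 and 0.62. Slc40a1 was most like Cpeb2 (0.95), Galc and P2ry13, and Hmox1 like Fam234a (0.96), Adgre1 and Lrp1.

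Hfe was most like Sipa1l3 (0.95), Cst3 and H2-DMb1, the last of these an MHC class II loading gene. Slc11a1 was most like Tlr13 (0.94), Treml4 and Pla2g7, and Blvrb like Arhgap17 (0.95), Cyp4v3 and Exoc8. Trf was most like the immediate early gene Fos (0.91), Sh2b3 and Fosb, which is a gene of the dissociation stress list as Fos is. Ftl1 was most like Zfp36 (0.94), Ftl1-ps1 and Sat1, and Fth1 like Ninj1 (0.86), Ccl2 and Sat1.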

How the data were processed

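Single cells from the CD64-sorted thymus were measured by 3′ UMI counting. Per the file headers, the authors' deposited matrices hold whole UMI counts, not normalized, from Cell Ranger 6.0.0 (2021) and 8.0.0 (2024), on mm10 per the submitters' processing notes. Such counts read the 3′ end of transcripts, and whether intronic reads were counted is not given in the sources used here. The 2024 library (2815 barcodes, median 5312 UMIs) was used for depth only, and barcodes were not compared between libraries.

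Barcodes with at least 500 UMIs, 300 genes and at most 10% mitochondrial UMIs were kept (3188 of 3214). Scrublet called 3 doublets (0.0941%), too few for the caller to have worked; these were removed, and an alternative removed the top 6% of scores. Cells were clustered in scanpy 1.11.5 (2000 variable genes without the 10 genes described, 30 components, 15 neighbours, Leiden resolution 0.5). Clusters were named from marker lists, needing 3 raised markers; rebuilt names can differ from those of the study. UMIs were summed per group and given as CPM with exact Poisson intervals, shares with exact binomial (Clopper-Pearson) ones. The sums were tested on simulated data. Shares were taken after thinning to 2000 UMIs, which left out 290 of 298 NK or innate lymphoid-like cells. A log2 ratio was computed with 10 CPM added, and folds without it. No p-values were computed, since 1 library gives no replicates.

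The members and lists were chosen with earlier results of these data known. From the 52 listed further genes, the text names those with at least 50 CPM in the higher group and a log2 ratio of at least 1 in size, up to 5 each way, and for each of the 10 genes the 3 most like it; some genes are not reported here. Alternatives covered the cell filter, doublets, clustering, naming, scaling, the pseudocount, the gate and thinning; leaving out cells with neutrophil transcripts was added after seeing the data. Iron-responsive elements were searched in GENCODE vM21 UTRs. Versions were Python 3.11.15, pandas 2.3.3, numpy 2.4.6, igraph 0.11.9 and scipy 1.17.1.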

Additional observations from a re-analysis of the deposited data

Results flagged for a closer look

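UMIs were counted for a gene outside the comparisons of groups above: Ftl1-ps1, a near copy of Ftl1 that the annotation lists as protein-coding, had 175 UMIs in kept cells, 56 of them in macrophage-like cells. The count is above the limit of 3 that a count of 0 allows. Ftl1 itself had 23355 UMIs, and how reads shared by the copies were counted was not tested. The 7 other ferritin-like genes looked for, Ftmt and the Fthl17 genes, had 0 UMIs.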

How the results depend on the processing

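No paired analysis was possible because only 1 of the 2 libraries gave gene values. The 9 genes past the fold in macrophage-like cells stayed 9 under all 11 alternatives run. The 7 in cluster 12 stayed 7 under the 9 alternatives that gave a count. With no cell filter the macrophage-like cells did not form separate clusters, so cluster 12 could not be compared there. The gate count lay between 6 and 7 under all 15. Within cluster 5 alone the 6 include Cd163, which has too few UMIs, and the count was 5 without it. The alternative with no minimum of UMIs could not change any of these counts, because they did not use that minimum. No called log2 ratio of a single gene changed its sign in macrophage-like cells, between the Vcam1 gates or between the macrophage-like clusters. Single-gene ratios of the other classes were not followed under the alternatives. The ferritin share of macrophage-like cells was 1.43% with classes from marker UMIs in each cell, 1.64% with the highest doublet scores removed, 1.69% with no cell filter and 1.38% with the stricter filter. Pairs with an interval above 1 numbered 5 with no cell filter and 18 with no thinning. In monocyte-like cells, 0 genes were higher and 2 lower with classes from marker UMIs, and 2 were lower with 1 CPM added. In neutrophil-like cells, with 0 higher as reported, the count was 1 with 1 CPM added, with the highest doublet scores removed, with the mean of per-cell CPM and without cells holding neutrophil transcripts; with median of ratios scaling it was 2 higher and 1 lower. That scaling left 3 lower in B lineage-like cells, and the stricter filter 3 lower in NK or innate lymphoid-like cells. The causes were not tested. Genes with few UMIs, such as Cd163, are limited by depth.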
